A study of Homo sapiens with 6 samples.

Results

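Bulk RNA sequencing covered A549, a long-established cell line from a human lung adenocarcinoma, in S-AlgLung hydrogels (3 libraries) and in AlgLung hydrogels (3 libraries). The ABC transporter genes were taken as every row of the deposited count table whose symbol is ABC followed by a subfamily letter from A to G and a number. This gave 47 of the 62703 rows and 46 symbols, because ABCC13 is listed under 2 gene IDs. The labels give no age, agent or genotype beyond the hydrogel and the shared culture medium with serum, leave the S of S-AlgLung unexplained, and do not say whether the replicates were separate cultures. The p-values therefore rest only on the variation among the 6 libraries, part or all of which could be technical.

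ABC proteins are membrane proteins that bind ATP through a conserved cassette and, in most subfamilies, use its hydrolysis to move a substrate across a membrane. Subfamily A moves lipids, subfamily B holds the multidrug pump P-glycoprotein together with transporters of mitochondria and lysosomes, and subfamily C holds the multidrug resistance-associated proteins. Subfamily D acts mainly in peroxisomes, E and F have no membrane part and act on ribosomes, and G holds sterol transporters and the drug pump ABCG2. In the lung, ABCA3 loads surfactant lipid into lamellar bodies, and several drug pumps are known from chemotherapy resistance of lung tumours.

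Total counts per library ran from 22978408 to 26495444. S-AlgLung replicate 3 stood apart: it correlated at 0.971 with each of the other S-AlgLung libraries, which correlated with each other at 0.986, while pairs of AlgLung libraries correlated at 0.978 to 0.988 (log2 CPM across genes, which are not independent replicates). It also had 49.2 CPM of the nuclear RNA MALAT1, against 8.11 to 13.2 CPM in the other 5 libraries. CPM is the count scaled to library size with TMM factors, and results whose call changes without this library are given with and without it. The epithelial markers KRT8, KRT18, KRT19, EPCAM and CDH1 were all detected, with a summed level of 4455.0 to 11996.4 CPM in S-AlgLung and 10033.5 to 13215.9 CPM in AlgLung. Most of that sum was KRT8 and KRT18, which overlap each other's exons and are uncertain. Their log2 fold changes (S-AlgLung over AlgLung) were -0.52 and -0.55, and that of KRT19 was -0.19. CDH1 at 0.33 and EPCAM at 0.97 went the other way, and none of these markers was called. EPCAM was low, at 3.83 ± 1.37 CPM in S-AlgLung and 1.95 ± 0.406 CPM in AlgLung, without overlap. Of the markers of other cell types, PTPRC, VWF, DCN and PDGFRB had at most 8 counts in all libraries together, while PECAM1 was at 2.37 ± 0.109 CPM in S-AlgLung and 1.37 ± 0.398 CPM in AlgLung without overlap, and COL1A1 at 3.37 ± 0.758 and 2.61 ± 0.474 CPM, neither called. The summed level of that list was 149.7 to 177.3 CPM in S-AlgLung and 61.1 to 98.1 CPM in AlgLung, nearly all of it CD68, a lysosomal gene that shares exons with another listed gene and was called higher at 0.98 (adjusted p = 0.0138, and 0.0599 to 0.236 in the 4 fits that left out S-AlgLung replicate 1 or 1 AlgLung library). The part of these differences in the ABC results was not tested. The alveolar type 2 markers SFTPB, SFTPC and NKX2-1 had 5, 5 and 1 counts in all libraries together. Their list, which also holds NAPSA and LAMP3, summed to 0.76 to 2.35 CPM in S-AlgLung and 0.854 to 1.49 CPM in AlgLung. Most of that sum was NAPSA, at 1.42 ± 0.777 CPM in S-AlgLung and 0.954 ± 0.27 CPM in AlgLung. The level of NAPSA is uncertain, since NR1H2 on the other strand overlaps its exons and had 138 times its counts.

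Of the 47 rows, 29 were expressed, defined as at least 1 CPM in at least 3 libraries, and each of these 29 reached 1 CPM in all 6. Of all rows deposited, 26.2% were expressed. All members of subfamilies E (1) and F (3) were expressed, as were 3 of 4 in D, 9 of 13 in C, 6 of 9 in B, 5 of 12 in A and 2 of 5 in G. The 18 other rows had between 0 and 70 counts in all libraries together. With 0 counts, a library allows a level of up to 0.107 to 0.136 CPM (3 counts, counting error only). ABCA9, ABCD2, ABCG5, ABCG8 and both rows of ABCC13 had 0 counts in every library, ABCG5 and ABCG8 being the pair that returns plant sterols to the gut lumen. ABCB11, the bile salt export pump of liver, had 9 counts in all, and ABCA4, the retinal transporter, had 14.

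Levels between genes are compared as RPKM, the CPM divided by the exon length in kilobases given in the table. That length joins the exons of all listed transcripts, so it can exceed the transcript present in the cells. ABCC3, an exporter of conjugated organic anions, was by far the most abundant at a mean of 150.9 RPKM over the 6 libraries, with a range of 118.3 to 188.3 RPKM. It made up 34.1% to 41.8% of the summed RPKM of the family, and its lowest library lay above the highest library of every other member. Next came ABCC1 at 38.5 RPKM, ABCA3 at 29.2 RPKM, ABCC2 at 27.9 RPKM and ABCA2 at 23.3 RPKM. The libraries of these 4 genes overlapped between neighbours in that order. The 29th expressed gene, ABCC8, the sulfonylurea receptor of potassium channels, averaged 0.146 RPKM.

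**Figure D1:**
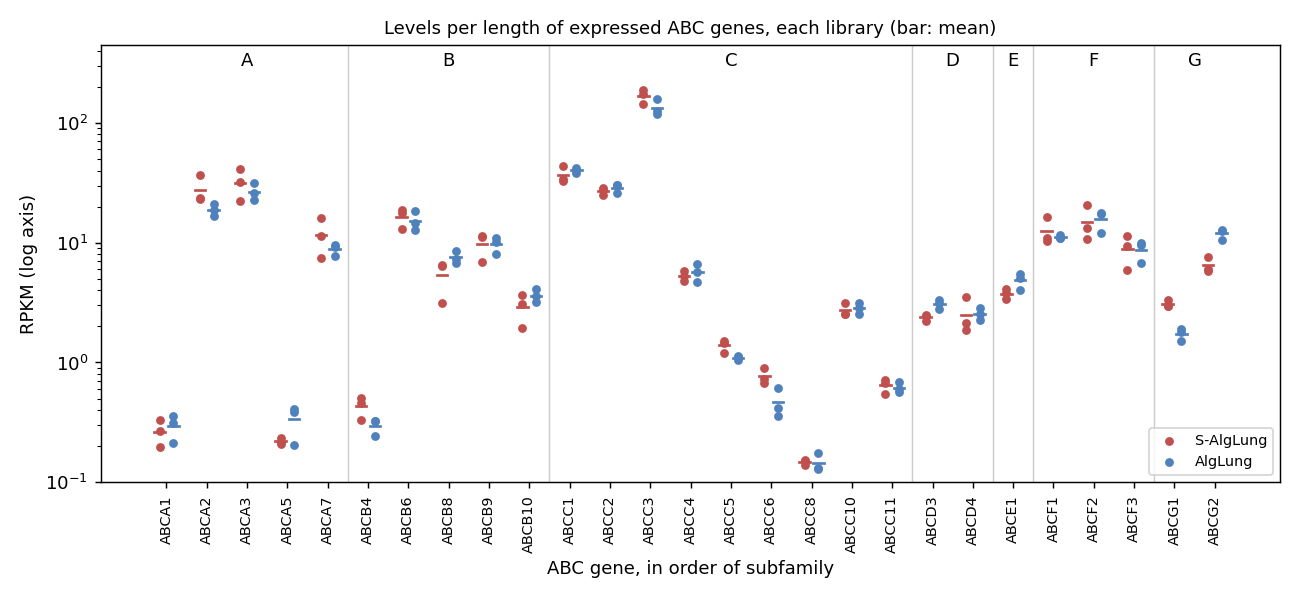
RPKM of 27 expressed ABC genes (log axis) in the 3 S-AlgLung libraries (red, left) and the 3 AlgLung libraries (blue, right), with short bars for the means and letters for the subfamilies. ABCC3 sits between 118.3 and 188.3 RPKM above all others, and in 8 of the 27 genes, ABCG1 and ABCG2 among them, the points of the hydrogels do not overlap.

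Setting S-AlgLung against AlgLung shows how transcript levels in these cells differ between the 2 hydrogels. In bulk RNA, fewer cells that express a gene and less of its RNA per cell cannot be told apart. Of 30 members with enough counts to test, ABCG1 was called higher and ABCG2 and ABCA12 were called lower in S-AlgLung (edgeR, adjusted p under 0.05 over all 18544 tested genes). An unadjusted p under 0.05 was found for 6 of the 30. The 3 calls are 10% of the tested members, against 5.14% of all tested genes called in either direction, 3.15% higher and 1.99% lower. ABCA12 is the only tested member that was not expressed, and among the 29 expressed members 2 were called, from which no difference from the background is read. When S-AlgLung replicate 1, AlgLung replicate 1 or AlgLung replicate 3 was left out, only ABCA12 remained called in the family. Without S-AlgLung replicate 3 all 3 were called, at log2 fold changes of 0.74, -0.83 and -2.28 (adjusted p = 0.0119, 0.00258 and 0.00511), and ABCA7 was added. In 9 members the libraries of the hydrogels did not overlap, which is 30% of those tested, against 18.4% of all tested genes. ABCA12 is among these 9, and no difference of the family from that share is read.

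By subfamily the median log2 fold changes (S-AlgLung over AlgLung), beside 0.03 for all tested genes, were 0.04 for the 6 tested A members (0.25 for the 5 expressed, without ABCA12), -0.02 for 6 B members, 0.03 for 9 C members, -0.02 for 3 D members, -0.37 for ABCE1 alone, 0.02 for 3 F members and -0.03 for the 2 G members. Over the 30 members the median was 0.00, with 15 above and 15 below 0, and the median size of the change was 0.25, against 0.23 for all genes. Scaling by total counts alone moved the median of all genes by -0.10 and put 10 members above and 20 below 0, so the signs of values near 0 rest on the scaling. Without S-AlgLung replicate 3 the median of subfamily D was -0.37.

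The summed RPKM of subfamily C was 270.8, 246.6 and 210.5 in S-AlgLung and 200.7, 234.9 and 206.0 in AlgLung, and the groups overlapped. For subfamily A it was 94.4, 67.4 and 53.3 in S-AlgLung and 51.5, 62.3 and 51.6 in AlgLung, also with overlap. Subfamily G was the only one of those with more than 1 member whose sums did not overlap, at 9.05, 10.6 and 9.11 RPKM in S-AlgLung and 14.0, 12.5 and 14.7 RPKM in AlgLung. ABCG2 made up most of that sum.

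**Figure D2:**
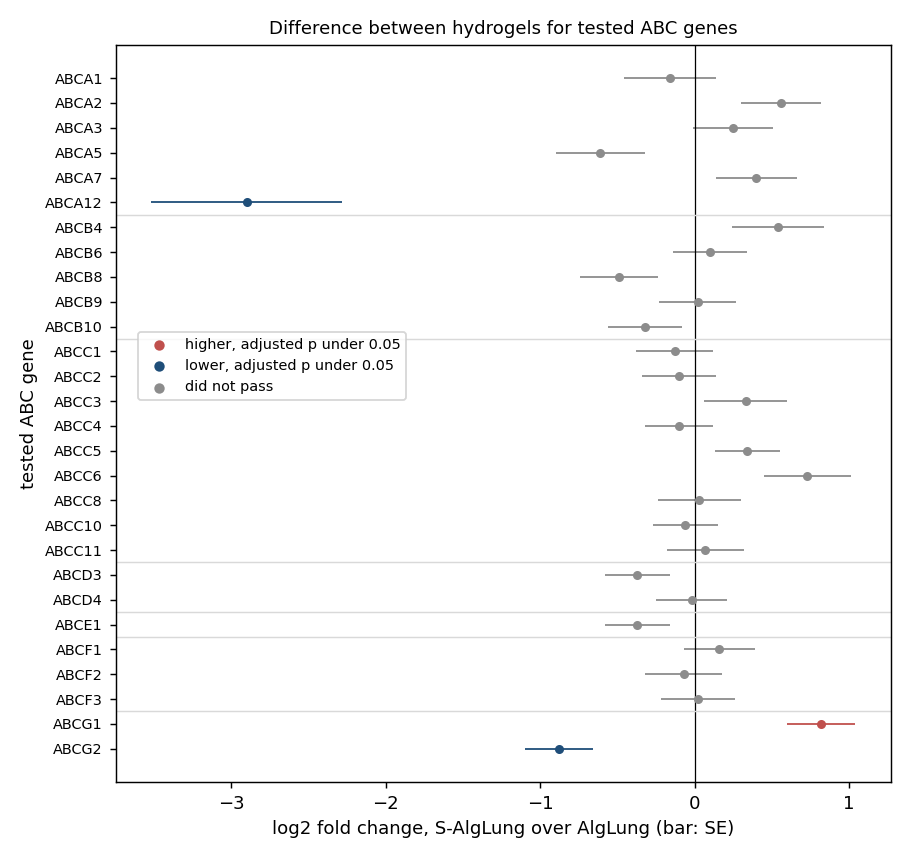
Log2 fold change (S-AlgLung over AlgLung) of 28 tested ABC genes with the standard error, in order of subfamily from A at the top to G at the bottom. ABCG1 at 0.82 lies to the right, ABCG2 at -0.88 and ABCA12 at -2.90 lie to the left, and the other 25 members, in grey, did not pass the test.

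ABCG2, the breast cancer resistance protein, is a plasma membrane pump for drugs, urate and porphyrins and is known for the dye exclusion of stem-like side population cells. Its gene lies on chromosome 4, 88090150 to 88231628, minus strand (GRCh38), with no exon shared with another listed gene. It was measured at 33.9, 42.8 and 32.4 CPM in S-AlgLung and at 69.9, 59.6 and 71.5 CPM in AlgLung. Every S-AlgLung library was below every AlgLung library, and the gap between the groups was wider than the spread within either. The means were 36.4 ± 5.62 CPM in S-AlgLung and 67.0 ± 6.47 CPM in AlgLung (SD, n = 3 each), 1.84-fold lower in S-AlgLung (-0.88 on the log2 scale, SE 0.22, adjusted p = 0.0126). The call was lost in the 5-library fits without S-AlgLung replicate 1 (adjusted p = 0.0736), AlgLung replicate 1 (0.0530) or AlgLung replicate 3 (0.0815), where the log2 fold change was -0.83, -0.89 and -0.88.

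ABCG1 exports cholesterol from cells to lipoprotein particles and is, with ABCA1, a known target of the liver X receptors. It lies on chromosome 21, 42199689 to 42297244, plus strand, also with no exon shared with another listed gene. Its level was 18.3, 18.0 and 20.2 CPM in S-AlgLung and 9.24, 11 and 11.8 CPM in AlgLung, so it was higher in every S-AlgLung library. The means of 18.8 ± 1.20 CPM in S-AlgLung and 10.7 ± 1.29 CPM in AlgLung gave a 1.77-fold rise (log2 fold change 0.82, SE 0.22, adjusted p = 0.0197). ABCG1 was not called when S-AlgLung replicate 1 was left out (adjusted p = 0.0525), nor without AlgLung replicate 1, 2 or 3 (0.179, 0.0716 and 0.119), at log2 fold changes of 0.84, 0.68, 0.84 and 0.84, and with scaling by total counts alone (0.142). ABCG4, a close relative of ABCG1 known mainly from brain, had 19 counts in all libraries.

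ABCA12, known for moving glucosylceramide into lamellar granules of skin, was measured at a low level. It lies on chromosome 2, 214931542 to 215138626, minus strand, and was below the expression threshold, reaching 1 CPM in 1 of the 6 libraries. It had 3, 5 and 0 counts in S-AlgLung and 22, 13 and 27 counts in AlgLung, or 0.116 ± 0.107 and 0.848 ± 0.267 CPM (SD, n = 3). The hydrogels did not overlap, and edgeR called ABCA12 lower at -2.90 on the log2 scale (SE 0.62, adjusted p = 0.00346). It passed the low-count filter only through its AlgLung counts. At its S-AlgLung level in both hydrogels it would not have been tested, so the call supports no count of the family. In fits that left out each library in turn the log2 fold change was -3.70 to -2.28 and the call was kept. With 8 counts in S-AlgLung and 62 in AlgLung, the size of the change is imprecise.

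**Figure D3:**
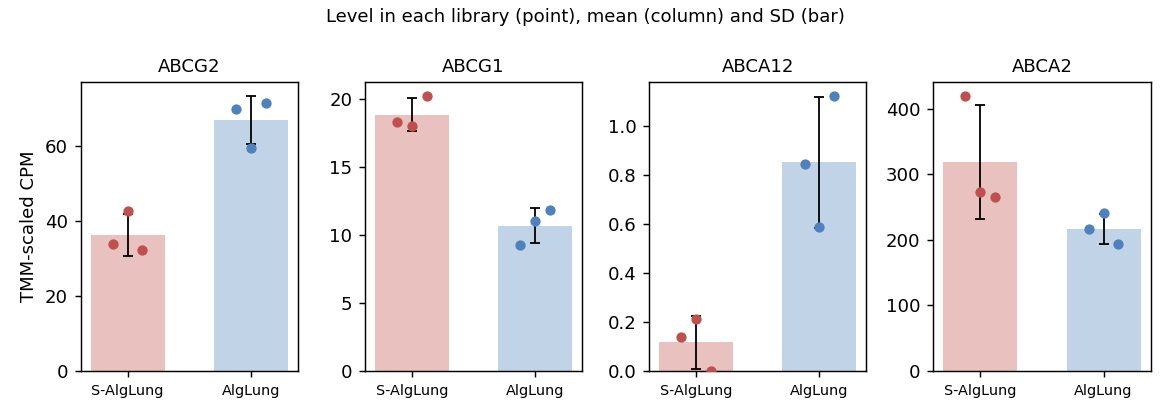
TMM-scaled CPM of the 3 called members and of ABCA2 in the S-AlgLung libraries (red, left) and the AlgLung libraries (blue, right), with means as columns and SD as bars. ABCG2 and ABCA12 are lower and ABCG1 is higher in all S-AlgLung libraries, while ABCA2, at 319.0 CPM in S-AlgLung and 216.5 CPM in AlgLung, did not pass the test.

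Among the other lipid transporters of subfamily A, none was called. ABCA1, which hands cholesterol and phospholipid to apolipoprotein A-I, had 3.76, 2.24 and 3.02 CPM in S-AlgLung and 4.06, 2.43 and 3.56 CPM in AlgLung, with overlapping groups (log2 fold change -0.16, SE 0.30, adjusted p = 0.890). ABCA3, the surfactant lipid transporter, had 321.0, 248.3 and 172.6 CPM in S-AlgLung and 176.4, 244.1 and 204.4 CPM in AlgLung (log2 fold change 0.25, SE 0.26, adjusted p = 0.761). The log2 fold change of ABCA3 was 0.01 with S-AlgLung replicate 1 dropped and 0.42 with S-AlgLung replicate 3 dropped. Of the 10 surfactant and lamellar body genes, SFTPA1, SFTPA2, SFTPB, SFTPC, NKX2-1 and LAMP3 had at most 16 counts each in all libraries. SFTPD had 71 counts, NAPSA 178, CTSH 2447 and LPCAT1 13292, and those of NAPSA may include reads of the overlapping NR1H2. ABCA2, a lysosomal lipid transporter best known from myelinating cells, was at 419.1, 272.1 and 265.8 CPM in S-AlgLung and 216.2, 240.1 and 193.0 CPM in AlgLung. The groups of ABCA2 did not overlap, but the difference missed the threshold at 0.56 (SE 0.26, adjusted p = 0.291). It also missed in the fit lacking S-AlgLung replicate 3 (0.64, adjusted p = 0.0508). Dropping the highest library instead, S-AlgLung replicate 1, lowered the value of ABCA2 to 0.31 (adjusted p = 0.702). ABCA7, a phospholipid transporter studied in Alzheimer disease, was at 112.3 ± 41.9 CPM in S-AlgLung and 84.8 ± 9.31 CPM in AlgLung (log2 fold change 0.40, adjusted p = 0.517). With S-AlgLung replicate 3 left out, ABCA7 passed as higher at 0.61 (adjusted p = 0.0468). Leaving out S-AlgLung replicate 1 instead put ABCA7 at 0.10 (adjusted p = 0.935). ABCA5 was at 2.90 ± 0.177 CPM in S-AlgLung and 4.41 ± 1.49 CPM in AlgLung (log2 fold change -0.61, adjusted p = 0.324). It lies at the end of a run of 5 A genes on chromosome 17 with ABCA8, ABCA9, ABCA6 and ABCA10, none of which was expressed, at 50, 0, 3 and 20 counts in all. ABCA10 shares 318 exon bases with ABCA5 on the same strand, so its 20 counts may include reads of ABCA5.

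Of 9 drug efflux pumps, 8 were expressed, and ABCG2 was the only one called. Of all tested genes 5.14% were called in either direction, and no difference of the pumps from that share is read from 1 call among 8. ABCB1, the gene of P-glycoprotein on chromosome 7, had 0, 1 and 2 counts in S-AlgLung and 0, 0 and 1 counts in AlgLung, so no difference was detectable at this depth. ABCB4, which moves phosphatidylcholine into bile and lies 22.6 kb from ABCB1, had 251 counts in S-AlgLung and 168 in AlgLung (3.34 ± 0.724 and 2.30 ± 0.358 CPM). Its groups did not overlap, and the log2 fold change of 0.54 missed the threshold (SE 0.30, adjusted p = 0.423).

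The pumps of subfamily C, which export conjugates with glutathione, glucuronate or sulfate and many drugs, were not called. ABCC3 was at 1810.2, 1660.8 and 1369.5 CPM in S-AlgLung and 1137.1, 1507.2 and 1217.9 CPM in AlgLung, overlapping only through S-AlgLung replicate 3 and AlgLung replicate 2 (log2 fold change 0.33, SE 0.27, adjusted p = 0.670). ABCC1, the widely expressed glutathione conjugate pump, was at 383.2, 297.4 and 284.0 CPM in S-AlgLung and 355.3, 366.6 and 331.8 CPM in AlgLung (log2 fold change -0.13, SE 0.25, adjusted p = 0.896). ABCC2, the bilirubin conjugate exporter of the apical membrane, was at 214.7, 225.0 and 195.5 CPM in S-AlgLung and 237.5, 202.5 and 238.9 CPM in AlgLung (log2 fold change -0.10, SE 0.24, adjusted p = 0.925). In ABCC1 and ABCC2 the libraries of the hydrogels overlapped. ABCC4, an exporter of cyclic nucleotides and prostaglandins, was at 45.5, 50.0 and 41.6 CPM in S-AlgLung and 57.5, 40.4 and 49.5 CPM in AlgLung (log2 fold change -0.10, SE 0.22). ABCC10 was at 25.2, 20.6 and 20.4 CPM in S-AlgLung and 20.4, 25.5 and 23.1 CPM in AlgLung (log2 fold change -0.06, SE 0.21). The adjusted p-values of these 2 genes were 0.906 and 0.949, and their groups overlapped. ABCC5, a pump for nucleotide analogues and cyclic nucleotides, was at 16.5, 13.7 and 17.2 CPM in S-AlgLung and 12.8, 12.7 and 12 CPM in AlgLung, without overlap, but its log2 fold change of 0.34 missed the threshold (SE 0.21, adjusted p = 0.513). ABCC11, the earwax-type gene expressed in apocrine glands, was at 4.58, 6.08 and 5.69 CPM in S-AlgLung and 5.06, 4.77 and 5.79 CPM in AlgLung (log2 fold change 0.07, SE 0.25). Its exons overlap those of LONP2, an antisense gene with 13.8 times as many counts, and no source used here gives the strand setting, so its level is uncertain.

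Per length, the order of the pumps was ABCC3, ABCC1, ABCC2, ABCG2, ABCC4, ABCC10, ABCC5, ABCC11 and ABCB1, at mean levels of 150.9, 38.5, 27.9, 9.23, 5.49, 2.79, 1.25, 0.629 and 0.00401 RPKM over the 6 libraries. The neighbours ABCG2 and ABCC4 overlapped in S-AlgLung, at 5.79 to 7.64 RPKM for ABCG2 and 4.82 to 5.80 RPKM for ABCC4, and did not overlap in AlgLung, at 10.6 to 12.8 RPKM for ABCG2 and 4.68 to 6.66 RPKM for ABCC4. Whether that distance differs between the hydrogels was not tested.

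Of the other C members, ABCC6, which releases ATP from liver cells and is mutated in pseudoxanthoma elasticum, was at 4.99, 4.69 and 6.22 CPM in S-AlgLung and 2.87, 4.27 and 2.48 CPM in AlgLung. The groups did not overlap, and the log2 fold change of 0.73 missed the threshold (SE 0.28, adjusted p = 0.164). ABCC6 has near-identical pseudogenes, and the 4 rows of ABCC6P1 and ABCC6P2 had 4.15% to 10.1% of its counts each, so its reads may be split between copies. ABCC8 was at 4.02 ± 0.195 CPM in S-AlgLung and 3.95 ± 0.708 CPM in AlgLung (log2 fold change 0.03). ABCC9, the other sulfonylurea receptor, had 3 counts in all, and ABCC12, which neighbours ABCC11, had 41. ABCC1 and ABCC6 also lie side by side, 6.31 kb apart on chromosome 16, with 48925 and 626 counts in all libraries.

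In subfamily B the mitochondrial and lysosomal members named here were expressed and none was called. ABCB10, a mitochondrial transporter linked to haem synthesis, was at 12.3 ± 3.74 CPM in S-AlgLung and 15.4 ± 1.83 CPM in AlgLung (log2 fold change -0.32, adjusted p = 0.604, or -0.56 and 0.0952 leaving out S-AlgLung replicate 3). ABCB8, of the mitochondrial inner membrane, was at 61.2, 60.1 and 29.3 CPM in S-AlgLung and 63.6, 80.3 and 68.1 CPM in AlgLung. Its groups did not overlap, with S-AlgLung replicate 3 well below the rest (log2 fold change -0.49, SE 0.25, adjusted p = 0.361). Leaving that library out, the log2 fold change of ABCB8 was -0.25. ABCB6, a porphyrin transporter, was at 85.7 ± 16.0 CPM in S-AlgLung and 79.7 ± 15.3 CPM in AlgLung, and ABCB9, a lysosomal peptide transporter, was at 130.8 ± 33.5 CPM in S-AlgLung and 129.1 ± 19.5 CPM in AlgLung. The levels of these 2 genes are uncertain. A gene on the same strand covers 54.6% of the exon bases of ABCB6 and had 1.90 times its counts, and 3 genes on the other strand overlap ABCB9, of which ARL6IP4 had 1.67 times its counts. ABCB5, known from melanoma, had 1 count in all libraries.

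Subfamily D imports fatty acyl groups into peroxisomes, apart from ABCD4, which acts in lysosomal cobalamin release. ABCD3 was at 19.0, 17.2 and 18.5 CPM in S-AlgLung and 24.1, 21.4 and 25.3 CPM in AlgLung, lower in every S-AlgLung library, yet its log2 fold change of -0.37 missed the threshold (SE 0.21, adjusted p = 0.428). ABCD4 was at 16.8, 19.1 and 31.3 CPM in S-AlgLung and 22.7, 25.3 and 20.0 CPM in AlgLung (log2 fold change -0.02, SE 0.23, adjusted p = 0.992). The highest of all 6 libraries in ABCD4 was S-AlgLung replicate 3. Its log2 distance from the mean of the other S-AlgLung libraries was -1.04 for ABCB8 and 0.79 for ABCD4. Over the tested members the median size of that distance was 0.29, against 0.35 over all tested genes.

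ABCE1, which splits ribosomes after termination, was at 25.7, 23.8 and 21.0 CPM in S-AlgLung and 34.3, 25.0 and 31.9 CPM in AlgLung, overlapping through 1 library of each hydrogel (log2 fold change -0.37, SE 0.21, adjusted p = 0.447). It shares exon bases with the antisense gene OTUD4, whose counts were 0.981 times those of ABCE1, so its level is uncertain. The ribosome-associated ABCF1, ABCF2 and ABCF3 were at 56.6 ± 14.8, 77.0 ± 26.8 and 45.5 ± 13.8 CPM in S-AlgLung and 50.5 ± 1.80, 80.9 ± 16.5 and 44.8 ± 8.96 CPM in AlgLung. Their log2 fold changes of 0.16, -0.07 and 0.02 were within 1 SE of 0, and ABCF2 shares 37.1% of its exon bases with the read-through gene ABCF2-H2BK1 and is uncertain too.

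ABC proteins with other symbols did not pass either. CFTR, the chloride channel of subfamily C, was at 2.95, 2.20 and 2.35 CPM in S-AlgLung and 1.72, 1.39 and 0.993 CPM in AlgLung, without overlap (log2 fold change 0.86, SE 0.33, adjusted p = 0.176). The antigen peptide transporters TAP1 and TAP2 of subfamily B had log2 fold changes of 0.14 and 0.12 (adjusted p = 0.866 and 0.881). The levels of CFTR, TAP1 and TAP2 are uncertain, since each overlaps a gene with 0.265, 0.256 and 0.840 times its counts.

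Genes that act with the ABC proteins were read from 7 lists. The calls in each list stand beside 5.14% of all tested genes called in either direction. With so few genes per list, no difference of a list from that share is read. Of 15 genes of cholesterol efflux and liver X receptor control, 14 were tested and 0 were called (median log2 fold change 0.12), with APOE at 0.52 and MYLIP, a receptor target that degrades the LDL receptor, at 0.53 (adjusted p = 0.290 and 0.322). MYLIP was at 0.12 when S-AlgLung replicate 3 was left out. Of 10 xenobiotic receptors and stress factors, 9 were tested and 0 were called (median 0.02). The aryl hydrocarbon receptor gene AHR was at -0.41 (adjusted p = 0.433), and passed as lower at -0.70 once S-AlgLung replicate 3 was left out (adjusted p = 0.0169). NR1I3 was at 0.46 (adjusted p = 0.503), with more reads on an overlapping gene of the other strand than its own. Of 14 genes of glutathione supply and conjugation, which make substrates for the C pumps, 13 were tested and 1 rose (median -0.10). This was GSTA1, a glutathione transferase, at 21.4, 32.7 and 28.5 CPM in S-AlgLung and 4.71, 7.42 and 6.87 CPM in AlgLung (log2 fold change 2.12, SE 0.24, adjusted p = 1.145e-06).

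Of 11 peroxisomal genes all were tested and 1 fell (median -0.16). This was ACOX2, an oxidase of branched-chain and bile acid side chains, at 2.40, 2.24 and 2.06 CPM in S-AlgLung and 5.63, 8.0 and 6.0 CPM in AlgLung (log2 fold change -1.55, SE 0.27, adjusted p = 3.724e-04). Of 10 surfactant and lamellar body genes 4 were tested and 0 were called (median 0.44, with the uncertain NAPSA among the 4). CTSH, a protease that processes surfactant protein, was at 0.68 (adjusted p = 0.0788, or 0.0231 when S-AlgLung replicate 3 was left out). SFTPD was at -0.73 (adjusted p = 0.527). Of 13 genes of mitochondrial iron, sulfur and haem all were tested and 0 were called (median -0.06). The iron importer gene SLC25A37 was at 0.57 (adjusted p = 0.291), or 0.00 when S-AlgLung replicate 3 was left out, and UROD, of haem synthesis, was at -0.31 (adjusted p = 0.601). Overlapping genes make the values of APOE, AHR and UROD uncertain as well, at 1.06, 0.536 and 1.21 times their counts. Of 10 translation genes all were tested and 0 were called (median -0.14), with EIF2S1 and HBS1L at -0.37 each (adjusted p = 0.458 and 0.488).

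The 250 bases before the annotated start of the gene were available for 35 of the 46 symbols (RefSeq, GRCh38.p14). Each gene has a single start in that set, and gene counts do not tell which start the cells used. For ABCG2 and ABCB1 that start lies at the outer end of the annotated gene. Starts further inside were not examined, so neither window need be the promoter in use. The windows shown are those of the called genes with an entry, ABCG2 and ABCA12, of the nearly silent pump ABCB1, and of 2 abundant members, ABCC2 and ABCA3. Capitals mark CG pairs, the sites of CpG methylation, and each sequence is given 5′ to 3′ on the minus strand, except that of ABCC2 on the plus strand.
ABCG2, chr4:88231627-88231876: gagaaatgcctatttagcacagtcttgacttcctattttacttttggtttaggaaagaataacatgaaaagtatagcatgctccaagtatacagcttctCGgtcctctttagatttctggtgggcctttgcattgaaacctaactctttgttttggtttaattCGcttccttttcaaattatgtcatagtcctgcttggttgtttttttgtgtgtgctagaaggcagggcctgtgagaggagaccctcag
ABCA12, chr2:215138627-215138876: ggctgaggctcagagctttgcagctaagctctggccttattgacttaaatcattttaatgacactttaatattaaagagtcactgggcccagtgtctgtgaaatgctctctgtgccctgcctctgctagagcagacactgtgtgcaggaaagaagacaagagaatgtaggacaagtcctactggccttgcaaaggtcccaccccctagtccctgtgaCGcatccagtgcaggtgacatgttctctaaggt
ABCB1, chr7:87713296-87713545: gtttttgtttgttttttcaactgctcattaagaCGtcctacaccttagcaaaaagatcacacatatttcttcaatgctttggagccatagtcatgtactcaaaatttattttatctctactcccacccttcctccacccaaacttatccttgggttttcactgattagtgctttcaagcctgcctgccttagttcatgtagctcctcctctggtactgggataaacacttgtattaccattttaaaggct
ABCC2, chr10:99782390-99782639: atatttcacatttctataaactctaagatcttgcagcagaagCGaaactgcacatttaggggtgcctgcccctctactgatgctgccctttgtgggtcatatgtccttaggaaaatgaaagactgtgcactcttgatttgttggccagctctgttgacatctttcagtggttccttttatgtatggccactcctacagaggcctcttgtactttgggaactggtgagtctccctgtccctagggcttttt
ABCA3, chr16:2340729-2340978: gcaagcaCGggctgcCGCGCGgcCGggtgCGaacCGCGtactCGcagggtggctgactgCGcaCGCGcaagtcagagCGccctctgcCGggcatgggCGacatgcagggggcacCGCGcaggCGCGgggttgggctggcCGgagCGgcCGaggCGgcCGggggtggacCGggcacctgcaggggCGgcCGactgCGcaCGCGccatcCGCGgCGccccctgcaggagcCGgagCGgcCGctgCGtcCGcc

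ABCG2, ABCA12, ABCB1 and ABCC2 held 2, 1, 1 and 1 CG pairs and 40.0%, 48.8%, 39.2% and 45.6% G and C in these windows, while ABCA3 held 38 CG pairs and 79.2% G and C. The median was 65.8% G and C and 21 CG pairs over the 22 expressed members with a window, 46.4% and 2 over the 13 members that were not expressed, and 58.0% and 11 over all 35116 promoters. ABCG2, ABCC2 and ABCC11 were the expressed members with an AT-rich window, and ABCC12, ABCG4, ABCG5 and ABCG8 were members without expression whose window held more than 55% G and C, a level chosen after the values were seen. Windows above that level were 19 of the 22 of expressed members and 4 of the 13 others, against 57.5% of all promoters. The GC box GGGCGG, searched on both strands, was in 15 of the 22 windows (68.2%) of expressed members and in 3 of 13 (23.1%) of the others, against 42.6% of all promoters. The antioxidant element core TGACNNNGC was in 6 windows (27.3%) of expressed members, against 10.9% of all promoters, and in 0 of the 13 others. The TATA box TATAAA was in 3 windows (13.6%) of expressed members and in 2 (15.4%) of the others, against 10.7% of all promoters. The CCAAT box was in 18.2% of expressed members, 15.4% of the others and 32% of all promoters. For the E box CACGTG these shares were 13.6%, 7.69% and 6.34%, and for the AP-1 site TGANTCA 0%, 7.69% and 6.57%. The liver X receptor repeat, 2 copies of AGGTCA in the same direction with 4 bases between, was in 0 of the 35 windows and in 0.0142% of all promoters. ABCG1 had no window, and so rare a pattern would be missing from 35 windows in any case. Nothing about control by these receptors is read from it. These are descriptions of letters in a window, with no test. No share was computed over the promoters of all expressed genes. The contrasts between expressed members and all promoters therefore cannot be read as particular to ABC genes.

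**Figure D4:**
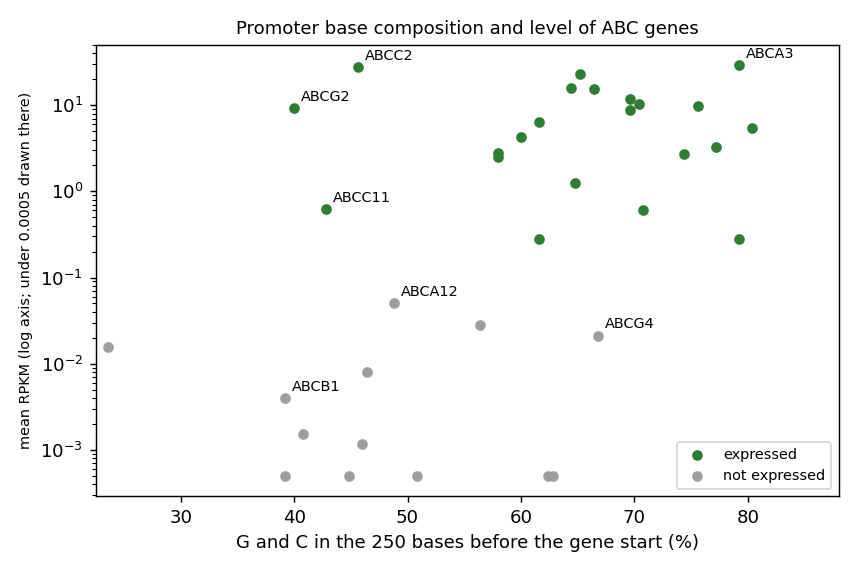
Share of G and C in the 250 bases before the gene start (percent) against the mean RPKM over the libraries (log axis, values under 0.0005 drawn there) for 35 ABC genes, green where expressed and grey where not. Most expressed members lie to the right, with ABCG2, ABCC2 and ABCC11 as expressed members at 40.0% to 45.6%.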

How the data were processed

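Per the labels' protocols, RNA was extracted with TRIzol and a column kit, and a service provider built, sequenced and adaptor-trimmed the libraries. The tools named in the submitters' processing notes are STAR 2.7.3a and featureCounts, on GRCh38. The featureCounts version, annotation, strand setting and treatment of multiply mapped reads were not given in the sources used here. What the authors deposited are raw read counts, and the table's length column gives exon bases per gene, per the file headers. The 2 columns of AlgLung replicate 1 were identical (0 genes differed) and counted as 1 sample. Of the gene IDs, 62625 matched the name table, which supplied the symbols.

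Genes were kept with filterByExpr (minimum count 10), scaled by TMM and compared by edgeR's quasi-likelihood test (version 4.0.16, R 4.3.3) over all 6 libraries without a block, adjusted by Benjamini-Hochberg over 18544 genes and called at 0.05. Log2 fold changes are S-AlgLung over AlgLung, with SE as their size divided by the square root of F. The script was tested on simulated counts. Deviations from the group means correlated between same-numbered libraries at 0.0721, 0.285 and 0.0413 across genes. Between libraries of different number they correlated at -0.338 to 0.208. The numbers were not treated as pairs, and a fit with them as a block was run as an alternative. Named genes were all called members, 9 drug pumps, ABCA1, ABCA3, ABCG1, the other expressed members more briefly, and the called or 2 lowest-p genes of each list. Values of some genes are not reported here. The members and lists were chosen with earlier results of these data known. Exon overlaps were computed from the table. A gene is called uncertain where an overlapping gene had at least 25% of its counts. Alternatives were other scalings, DESeq2 1.42.0, limma-voom (limma 3.58.1), other filters, the block and each library left out. The limits given for libraries without counts cover counting error only, while SD and SE also hold variation among libraries.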

Additional observations from a re-analysis of the deposited data

How the results depend on the processing

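The number of ABC members called higher was 1, and it was 0 with total counts only and at an adjusted p under 0.01, and 0 to 2 with each library left out. The number called lower was 2, and it was 1 with a mean of at least 1 CPM (ABCA12 is then not tested) and at an adjusted p under 0.01, and 1 to 2 with each library left out. Over all genes, 584 were higher and 369 lower. These were 333 higher with total counts only, 323 higher and 217 lower at an adjusted p under 0.01, and 289 to 891 higher and 244 to 662 lower with each library left out, the highest numbers being those without S-AlgLung replicate 3. The number of expressed members was 29 under every alternative run. The median of subfamily A was -0.17 to 0.12 with libraries left out. That of C was -0.07 with total counts only and -0.08 to 0.02 with libraries left out, that of D -0.37 to 0.08 with libraries left out, and that of G -0.13 with total counts only. With the replicate number as a block, 800 genes were higher and 500 lower. In that fit ABCG1, ABCG2 and ABCA12 stayed called (adjusted p = 0.00311, 0.00183 and 4.800e-04), and CTSH and EPCAM gained a call (0.0247 and 0.0331).

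Of 391 log2 fold changes of 28 tested members under alternatives, 349 kept direction and side of the threshold, 8 lost a call, 1 gained one and 33 changed sign, all of the last for uncalled members near 0. With total counts only, ABCB6 was at 0.00, ABCB9 at -0.11, ABCC8 at -0.07, ABCC11 at -0.03 and ABCF3 at -0.10. With upper-quartile factors ABCB9 was at -0.02, ABCC8 at 0.00 and ABCF3 at -0.02. With limma-voom ABCB9 and ABCF3 were at 0.00, and with the replicate block ABCB9 was at -0.01 and ABCF3 at 0.00. With libraries left out the ranges that crossed 0 were ABCA1 -0.35 to 0.01, ABCB6 -0.06 to 0.26, ABCB9 -0.14 to 0.19, ABCC10 -0.19 to 0.02, ABCC11 -0.02 to 0.17, ABCC8 -0.10 to 0.18, ABCD4 -0.37 to 0.15, ABCF1 -0.08 to 0.28, ABCF2 -0.39 to 0.09, ABCF3 -0.19 to 0.21, SLC25A37 0.00 to 0.79, TAP1 -0.07 to 0.24 and TAP2 -0.01 to 0.18. Values near 1 CPM, such as ABCA12, are limited by depth, and the cause of the changes was not tested.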
